A study of Mus musculus with 8 samples.

Results

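The ephrins, Eph receptors, semaphorins, plexins and neuropilins are the ligands and receptors of a pair of cell guidance systems, and their messenger RNA was followed here in pigment cell precursors sorted from mouse skin. The genes were taken by symbol, from probe sets annotated with 1 gene each, and where a gene had several, the brightest on average was used. This gave 52 of the 22180 genes measured: 8 ephrins, 13 Eph receptors, 20 semaphorins, 2 neuropilins and 9 plexins. The symbols alone set which genes are in the set. Ephb2 was not analysed here.

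Ephrins are tethered to the cell surface and bind Eph receptors, a family of receptor tyrosine kinases, on a neighbouring cell, so that the signal needs contact and can run into both cells. Semaphorins are secreted or membrane-bound and act through plexins, and most secreted class 3 semaphorins first bind a neuropilin that carries the plexin with it. Both systems were described as cues that repel or attract growing axons and migrating neural crest cells, the embryonic population from which melanoblasts, the precursors of pigment cells, and Schwann cells of the nerves both come.

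Cells were dissociated from whole skin and sorted for green fluorescent protein and for the lack of surface p75, the low-affinity nerve growth factor receptor. In every group the fluorescence came from the Z/EG reporter, recombined by Cre driven from the tyrosinase promoter (Tyr::Cre), so a cell entered the sort by having expressed that transgene at any time, not by its state at harvest. All mice were on a mixed C57Bl/6 and 129/Sv background and carried both transgenes. P4_WT holds 2 arrays of cells labelled melanoblasts from pups of 4 days with B-raf +/+; C-raf +/+, labelled as biological replicates with different numbers. P21_WT holds 2 arrays of cells labelled melanocyte stem cells from 21-day mice of the same genotype, again labelled as biological replicates with different numbers. P21_KO holds 4 arrays of such cells from 21-day mice homozygous for the floxed alleles B-raf fl/fl and C-raf fl/fl, in which Cre can delete both kinases in the cells that express it. Replicates 2, 3 and 4 of P21_KO are labelled with a common number of unstated meaning, so their independence is not known. P-values here rest on how far these 8 arrays spread and are too small if those 3 arrays share a source.

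Values are RMA log2 intensities, in which 1 unit is a factor of 2. The age comparison is P21_WT minus P4_WT, the genotype comparison is P21_KO minus P21_WT, and a comparison of P21_KO minus P4_WT joins age and genotype in 1 difference. The comparisons share arrays, so their values for a gene are set side by side and are not independent of each other. A gene was called, and is said to have risen or fallen, where the adjusted p of limma was under 0.05, with Benjamini-Hochberg adjustment over all 22180 genes. A value after ± is a standard error. Because probe sets differ in brightness, no gene's level is set against another's.

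The labels were checked on marker genes. Of the melanocyte markers, Mitf, the master transcription factor of the lineage, read 6.46 to 8.19 and Sox10, a factor shared with glia, 7.23 to 8.32, all far above the arrays' median of about 3.23. Over all 14 melanocyte markers, which include the pigment enzymes, the mean was 8.97 to 9.10 in P4_WT, 7.55 to 7.67 in P21_WT and 5.95 to 7.27 in P21_KO. Other lineages were not absent on any array. Over the 8 arrays the mean was 6.19 to 7.58 for keratinocyte markers and 6.57 to 7.32 for Schwann cell and glia markers. It was 5.29 to 6.57 for fibroblast and dermal papilla markers and 3.75 to 4.87 for pericyte and smooth muscle markers. P4_WT replicate 2 stood apart in endothelial markers, with a mean of 5.04 over 14 genes against 3.09 to 3.35 on the other 7 arrays, and in markers of macrophages, dendritic cells and T cells, with 5.47 over 13 genes against 3.09 to 3.63. Markers of the hair shaft and inner root sheath averaged 5.50 and 3.91 in P4_WT and 2.84 to 2.99 in the 21-day arrays. In these bulk samples, fewer cells of a type and less RNA per cell cannot be told apart.

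**Figure D1:**
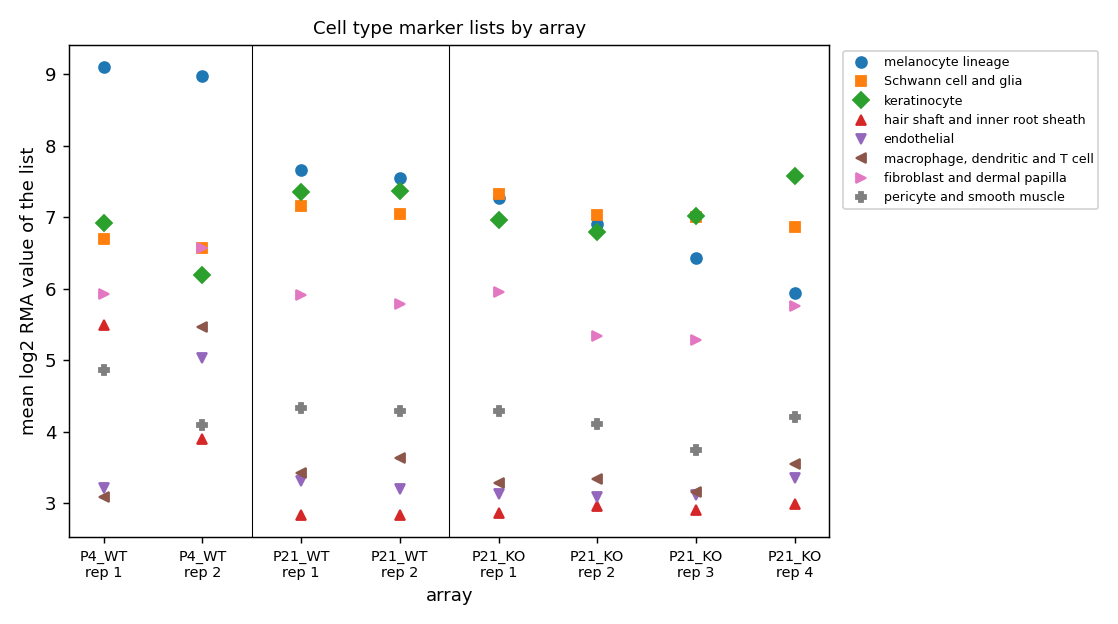
Mean log2 RMA intensity (y axis) of 8 marker lists on each of the 8 arrays (x axis, in the groups P4_WT, P21_WT and P21_KO), each drawn with its own symbol and colour. The melanocyte mean is highest in P4_WT, at 8.97 to 9.10, and lowest in P21_KO, at 5.95 to 7.27. P4_WT replicate 2 carries the high endothelial and immune means of 5.04 and 5.47.

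Between 4 and 21 days in wild-type mice, 5 of the 52 guidance genes changed. Efna5, which encodes ephrin-A5, and Nrp1, the co-receptor for secreted semaphorins, fell, while Sema3b, Sema5a and Plxnb3, which encodes the plexin-B3 receptor of Sema5a, rose. The 5 called genes are 9.62% of the set, and 1.61% of all genes were called in this comparison, 0.757% as higher and 0.852% as lower. At an unadjusted p under 0.05 the set gave 22 genes, or 42.3%, against 12.6% of all genes. Of these 22 genes 14 were higher and 8 lower, and the shares of all genes were 5.17% and 7.46%. For 29 of the 52, or 55.8%, the arrays of the ages did not overlap (15 higher and 14 lower), as was so for 43.5% of all genes (21.4% and 22.1%). The set did not move in 1 direction, since 24 genes were higher and 28 lower at 21 days, with a median difference of -0.02 against 0.00 over all genes. The median size of the difference was 0.42 against 0.21 over all genes. The guidance genes are brighter than most, and among the 11912 genes with a mean at or above the median of all values the sizes were 0.54 for the 42 guidance genes there and 0.32 for all. The shares called were 11.9% and 2.78%, and 47.6% and 20% had an unadjusted p under 0.05.

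The calls depend on the knockout arrays, which lend their spread to the fit. Fitted without any knockout array, 0 of the 52 were called, and each of the 5 calls was lost on leaving out at least 1 wild-type array. The count fell to 2 without P4_WT replicate 1 (Efna5 and Sema3b) and to 2 without P21_WT replicate 2 (Efna5 and Nrp1). Without P21_WT replicate 1 all 5 calls were lost, and the 1 gene called was Ephb6. Without P4_WT replicate 2, the array with the endothelial and immune markers, the count stayed at 5, but the genes were Efna5, Epha4, Plxna2, Plxnb3 and Sema4c.

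**Figure D2:**
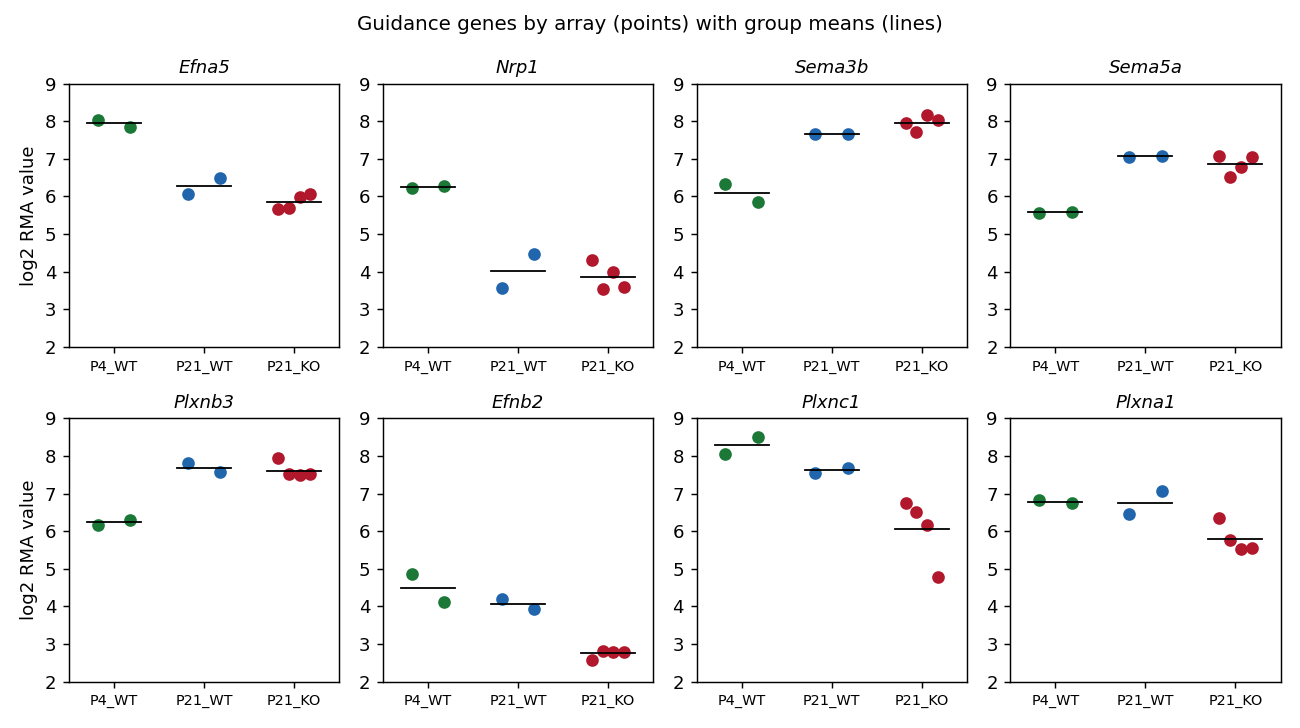
Log2 RMA intensity (y axis) of 8 guidance genes on each array, by group (x axis), where points are arrays and the short lines are group means. Efna5 and Nrp1 are lower in both 21-day groups than in P4_WT, and Sema3b, Sema5a and Plxnb3 are higher. Efnb2, Plxnc1 and Plxna1 have their lowest values in P21_KO.

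The sequence around the start site is shown for 4 of the 5 genes called between the ages, and for Efnb2, which had the smallest p of the set between the genotypes. Sequences are from RefSeq on GRCm38.p6 and run 5′ to 3′ from 250 bases before the annotated start to 50 after it. Efna5 lies at chr17:62881268-62881567 on the minus strand, Nrp1 at chr8:128358823-128359122 on the plus strand, Sema5a at chr15:32244563-32244862 on the plus strand, Plxnb3 at chrX:73756853-73757152 on the plus strand and Efnb2 at chr8:8661193-8661492 on the minus strand. Capitals mark the GC box GGGCGG and the SOX motif ACAAAG on either strand, which were the motifs found among 7 searched.
Efna5: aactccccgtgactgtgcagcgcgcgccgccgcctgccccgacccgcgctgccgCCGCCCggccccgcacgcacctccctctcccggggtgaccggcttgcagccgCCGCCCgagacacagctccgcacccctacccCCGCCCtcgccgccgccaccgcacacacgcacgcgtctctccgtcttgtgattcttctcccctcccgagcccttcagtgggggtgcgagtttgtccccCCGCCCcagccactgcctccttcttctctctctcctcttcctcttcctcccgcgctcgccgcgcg
Nrp1: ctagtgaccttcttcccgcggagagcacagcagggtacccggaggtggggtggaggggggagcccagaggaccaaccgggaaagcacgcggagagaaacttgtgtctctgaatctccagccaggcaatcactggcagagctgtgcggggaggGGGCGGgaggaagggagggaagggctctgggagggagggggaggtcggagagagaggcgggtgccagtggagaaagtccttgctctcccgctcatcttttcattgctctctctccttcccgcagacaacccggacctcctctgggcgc
Sema5a: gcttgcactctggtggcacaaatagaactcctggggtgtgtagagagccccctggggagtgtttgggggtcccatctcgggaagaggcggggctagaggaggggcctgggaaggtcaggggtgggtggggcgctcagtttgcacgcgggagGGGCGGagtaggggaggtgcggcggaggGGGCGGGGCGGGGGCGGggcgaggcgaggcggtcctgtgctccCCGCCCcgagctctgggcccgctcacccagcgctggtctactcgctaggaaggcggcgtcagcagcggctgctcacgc
Plxnb3: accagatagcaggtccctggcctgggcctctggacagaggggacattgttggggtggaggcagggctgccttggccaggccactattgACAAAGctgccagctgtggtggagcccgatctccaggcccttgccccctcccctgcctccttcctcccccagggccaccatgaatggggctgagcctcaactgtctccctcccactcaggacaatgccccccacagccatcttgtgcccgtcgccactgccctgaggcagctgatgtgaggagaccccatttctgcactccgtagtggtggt
Efnb2: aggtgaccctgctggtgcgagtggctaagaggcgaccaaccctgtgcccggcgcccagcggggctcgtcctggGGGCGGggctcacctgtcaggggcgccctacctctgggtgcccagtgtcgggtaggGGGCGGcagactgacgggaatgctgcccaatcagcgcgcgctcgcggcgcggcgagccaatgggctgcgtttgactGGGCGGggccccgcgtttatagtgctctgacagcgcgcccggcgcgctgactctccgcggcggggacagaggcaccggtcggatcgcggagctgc

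The GC box occurred 4 times at Efna5, 1 time at Nrp1, 5 times at Sema5a, where several copies run together, 3 times at Efnb2 and 0 times at Plxnb3. Plxnb3 alone of these 5 held ACAAAG. The 5 windows held none of the E-box CACGTG, the M-box core CATGTG, the LEF/TCF motif CTTTGA, the ETS motif CCGGAAG or the AP-1 motif TGANTCA. Of the 60 start sites listed for 46 of the guidance genes, 76.7% held a GC box and 16.7% held ACAAAG, against 46.2% and 16.8% of the 21263 start sites of coding genes. GC content was 63.7% to 73.3% in the 5 windows, and the median over all start sites was 52.7%. A match says only that these letters are present.

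Among the ephrins, the ligands that stay on the cell surface, Efna5 was the gene called in the age comparison. Ephrin-A5 is held in the membrane by a lipid anchor and is known for repelling axons that carry EphA receptors. Efna5 read 8.04 and 7.86 in P4_WT, 6.07 and 6.50 in P21_WT, and 5.67, 5.70, 5.99 and 6.07 in P21_KO. Every 21-day array lay below both P4_WT arrays, and both 21-day groups met at 6.07. Efna5 fell by 1.66 ± 0.22 between the ages, or 3.15-fold (limma adjusted p = 0.0109), and was 4.26-fold lower in P21_KO than in P4_WT (limma adjusted p = 0.000751). The genotype difference was -0.43 ± 0.19 (limma adjusted p = 0.772), with a 95% interval from -0.87 to 0.0027. The age call was lost without P21_WT replicate 1 (limma adjusted p = 0.075).

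Efnb2 encodes ephrin-B2, a transmembrane ligand of EphB receptors and of EphA4 that is also known as a marker of arteries. It read 4.86 and 4.12 in P4_WT, 4.19 and 3.94 in P21_WT, and 2.58, 2.82, 2.80 and 2.80 in P21_KO. All 4 knockout arrays lay more than 1 unit below every wild-type array, at either age, and below the arrays' median. The age difference was -0.42 ± 0.25 (limma adjusted p = 0.574). The genotype difference was -1.32 ± 0.22, a 2.49-fold lower mean with a 95% interval from -1.81 to -0.82, which did not pass the adjustment (unadjusted p = 0.00025, limma adjusted p = 0.284). Against P4_WT, Efnb2 fell by 1.74 ± 0.22 in P21_KO, or 3.33-fold (limma adjusted p = 0.00285).

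Of the 14 endothelial markers, 8 were lower and 6 higher in P21_KO than in P21_WT, with a median difference of -0.07. Below the arrays' median lay 10 of them in P21_WT and 10 in P21_KO. The defining markers Pecam1 and Cdh5 differed by -0.09 ± 0.78 and -0.29 ± 0.72. Eng, the TGF-beta co-receptor endoglin, took the same direction as Efnb2. Eng read 5.93 and 6.05 in P21_WT and 4.13 to 5.18 in P21_KO, without overlap, a genotype difference of -1.29 ± 0.28 (limma adjusted p = 0.483), and it fell by 1.92 ± 0.28 in P21_KO against P4_WT (limma adjusted p = 0.00601). The part of endothelial cells in the Efnb2 values was not tested.

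Efna4, the third ephrin called in P21_KO against P4_WT, was close to the arrays' median throughout. It read 3.73 and 3.34 in P4_WT, 2.81 and 2.82 in P21_WT, and 2.60 to 2.89 in P21_KO. It fell by 0.83 ± 0.16 in P21_KO against P4_WT (limma adjusted p = 0.0197), a call lost without P4_WT replicate 1 (limma adjusted p = 0.136). Efna4 lies next to Efna3 and Efna1 on chromosome 3, with 0 coding genes between neighbours, and these did not share its values: Efna3 differed by 0.01 ± 0.20 and Efna1 by -0.25 ± 0.57 between the ages. Among the ephrins, Efna1 spread most within P21_KO, at 4.79, 6.13, 5.06 and 6.68. Of the other ephrins, Efna2 differed by -0.94 ± 0.39 between the ages without passing the test (limma adjusted p = 0.363), Efnb1 by -0.23 ± 0.18, and Efnb3 lay below the arrays' median in all 3 groups.

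Of the 13 Eph receptors, 0 were called between the ages and 0 between the genotypes. At an unadjusted limma p under 0.05 there were 3 between the ages, or 23.1% against 12.6% of all genes. Between the genotypes there were 0, against 6.52% of all genes. Epha3, Epha5, Epha6, Epha8 and Ephb1 lay below the arrays' median in all 3 groups, where RMA compresses differences. The receptor called in P21_KO against P4_WT was Ephb6, an Eph receptor whose kinase domain is inactive. Ephb6 read 4.36 and 4.35 in P4_WT, 4.79 and 5.93 in P21_WT, and 5.56, 5.76, 5.89 and 5.56 in P21_KO. Both P4_WT arrays were below all others, and the 2 P21_WT arrays differed from each other by more than 1 unit. Ephb6 rose by 1.34 ± 0.28, or 2.54-fold (limma adjusted p = 0.0262). This call was lost without P4_WT replicate 1 (limma adjusted p = 0.12), P4_WT replicate 2 (0.123), P21_KO replicate 2 (0.06) or P21_KO replicate 3 (0.067).

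Epha4, a receptor that binds ephrins of both classes, read 5.33 and 3.84 in P4_WT, 3.85 and 3.77 in P21_WT, and 3.11 to 3.67 in P21_KO. Its higher P4_WT value came from replicate 1, which also held the higher value of Epha1, at 5.04 against 3.53. That array had the higher mean of hair shaft and inner root sheath markers, 5.50 against 3.91. It was also higher in keratinocyte markers, 6.92 against 6.19, and in pericyte and smooth muscle markers, 4.87 against 4.09. Its melanocyte and glial means were slightly higher, and its endothelial, immune and fibroblast means were lower than in replicate 2. The part of any of these cells in the Epha4 and Epha1 values was not tested. Epha2, a receptor of ephrin-A1, read 3.54 and 3.78 in P4_WT and 4.03 to 4.53 in the 21-day arrays, without overlap, and differed by 0.51 ± 0.20 between the ages (limma adjusted p = 0.343). Ephb4, the receptor of ephrin-B2 in veins, differed by -0.58 ± 0.26 (limma adjusted p = 0.42). Epha7 differed by 0.52 ± 0.21 (limma adjusted p = 0.336) from values below the arrays' median in P4_WT. Epha10, which read 3.84 to 4.26, and Ephb3, which read 4.14 to 5.05, differed by -0.10 and -0.02 between the ages and by 0.05 and 0.01 between the genotypes.

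Of the 20 semaphorins, 8 were higher and 2 lower between the ages at an unadjusted limma p under 0.05, or 50% against 12.6% of all genes, and 2 of them rose past the adjusted threshold. Sema3b is a secreted class 3 semaphorin that signals through neuropilins. Sema3b read 6.33 and 5.85 in P4_WT, 7.65 and 7.67 in P21_WT, and 7.95, 7.72, 8.17 and 8.03 in P21_KO. The groups did not overlap, and all 6 arrays at 21 days stood more than 1 unit above both P4_WT arrays. Sema3b rose by 1.57 ± 0.22 between the ages, or 2.97-fold (limma adjusted p = 0.013), and was 3.67-fold higher in P21_KO than in P4_WT (limma adjusted p = 0.00115). Between the genotypes it differed by 0.31 ± 0.19 (limma adjusted p = 0.876), with a 95% interval from -0.12 to 0.74. The age call was lost without P4_WT replicate 2 (limma adjusted p = 0.052), P21_WT replicate 1 (0.083) or P21_WT replicate 2 (0.074).

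Sema5a encodes a transmembrane semaphorin with thrombospondin repeats that can attract or repel axons. It read 5.57 and 5.59 in P4_WT, 7.06 and 7.08 in P21_WT, and 7.07, 6.52, 6.78 and 7.04 in P21_KO. The replicates of each wild-type group were almost equal, and the gap between them was many times their spread. Sema5a rose by 1.49 ± 0.21, or 2.82-fold (limma adjusted p = 0.0137), and differed by -0.22 ± 0.18 between the genotypes (limma adjusted p = 0.912), with a 95% interval from -0.63 to 0.20. Its age call was lost on leaving out any 1 of the 4 wild-type arrays (limma adjusted p of 0.053 to 0.086).

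Several semaphorins were called in P21_KO against P4_WT and not between the ages. Sema4c, a transmembrane ligand of plexin-B2, read 5.05 and 5.87 in P4_WT, 6.56 and 6.96 in P21_WT, and 6.82 to 7.19 in P21_KO. It rose by 1.60 ± 0.25, or 3.04-fold (limma adjusted p = 0.00719), and its age difference was 1.30 ± 0.28 (limma adjusted p = 0.0719). Sema3g, a secreted ligand of neuropilin-2, read 4.90 and 4.50 in P4_WT and 5.19 to 5.72 in the 21-day arrays, and rose by 0.76 ± 0.19 in P21_KO (limma adjusted p = 0.0464). This call was lost on leaving out any 1 of the 8 arrays (limma adjusted p of 0.051 to 0.276).

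Sema3c is a secreted semaphorin known for guiding neural crest cells into the outflow tract of the heart. It read 6.30 and 6.65 in P4_WT, 6.08 and 5.72 in P21_WT, and 5.54, 5.49, 5.48 and 5.32 in P21_KO. The 3 groups stood in descending order without overlap. Sema3c fell by 1.02 ± 0.17 in P21_KO against P4_WT, or 2.03-fold (limma adjusted p = 0.0104). The share of that difference lying between the ages was -0.58 ± 0.20 (limma adjusted p = 0.248), and the share between the genotypes was -0.44 ± 0.17 (limma adjusted p = 0.736). Without P4_WT replicate 2 the call was lost (limma adjusted p = 0.079).

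Sema3d and Sema3a, secreted semaphorins whose genes are neighbours on chromosome 5, were both lower in every knockout array than in every P21_WT array. Sema3d read 4.03 and 4.03 in P4_WT, 4.20 and 4.34 in P21_WT, and 3.84, 3.43, 3.29 and 3.71 in P21_KO. The genotype difference was -0.70 ± 0.18, with a 95% interval from -1.12 to -0.28 (limma adjusted p = 0.565). Sema3a, the classical ligand of neuropilin-1, read 3.73 and 4.07 in P4_WT, 3.70 and 3.68 in P21_WT, and 3.15 to 3.44 in P21_KO, a genotype difference of -0.36 ± 0.16 (limma adjusted p = 0.766). Neither passed the test.

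Of the class 6 semaphorins, which are transmembrane ligands of the A plexins, Sema6c differed by 1.16 ± 0.30 (limma adjusted p = 0.117) and Sema6a by -1.08 ± 0.31 (limma adjusted p = 0.159) between the ages, so members of the same class lay on opposite sides without passing the test. Sema6d was among the brighter probe sets, at 7.57 to 8.35 on the 8 arrays. Sema7a, the lipid-anchored ligand of plexin-C1, differed by 0.73 ± 0.29 (limma adjusted p = 0.344). Sema4f and Sema6b lay below the arrays' median in all 3 groups.

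Sema4g, a transmembrane semaphorin, varied more within the 21-day groups than most. It read 3.92 and 4.01 in P4_WT, 4.62 and 5.75 in P21_WT, and 5.57, 4.30, 4.75 and 5.56 in P21_KO, all above P4_WT, and its age difference was 1.22 ± 0.49 (limma adjusted p = 0.348). Sema4d, the ligand of plexin-B1, was 1 of the 2 guidance genes with every knockout array above both P21_WT arrays, at 3.43 to 3.90 against 3.19 and 3.23, a difference of 0.35 ± 0.18 (limma adjusted p = 0.817). Sema3e, Sema3f, Sema4a, Sema4b and Sema5b differed by -0.21 to 0.42 between the ages and by -0.52 to 0.17 between the genotypes, and 0 of them were called in any of the 3 comparisons.

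The neuropilins lay on opposite sides. Nrp1 binds Sema3a and also the vascular growth factor VEGF-A. Nrp1 read 6.21 and 6.27 in P4_WT, 3.56 and 4.47 in P21_WT, and 4.30, 3.54, 3.98 and 3.61 in P21_KO. Both P4_WT arrays stood above all 6 arrays at 21 days, and the 21-day groups overlapped. Nrp1 fell by 2.23 ± 0.34 between the ages, or 4.68-fold (limma adjusted p = 0.0211), the greatest change in size among the 52 in that comparison. It was 5.22-fold lower in P21_KO than in P4_WT (limma adjusted p = 0.00285). Between the genotypes it differed by -0.16 ± 0.30 (limma adjusted p = 0.974), with a 95% interval from -0.84 to 0.52. The Nrp1 call between the ages was lost without P4_WT replicate 1 (limma adjusted p = 0.069), P4_WT replicate 2 (0.083) or P21_WT replicate 1 (0.096).

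Nrp1 is also a gene of endothelial cells. Between the ages 13 of the 14 endothelial markers were lower, with a median difference of -0.87 and 0 called. Endothelial markers averaged 3.22 in replicate 1 of P4_WT and 5.04 in its replicate 2, and Pecam1 read 3.66 and 7.21, while Nrp1 differed by less than 0.1 between these arrays. Of the 14 melanocyte markers, 12 were lower between the ages, with a median difference of -1.14. Of these 3 were called, beside 0.852% of all genes called lower. The part of endothelial or melanocyte cells in the Nrp1 and Efna5 values was not tested. Nrp2, the co-receptor for Sema3c and Sema3g, read 5.06 and 5.76 in P4_WT, 5.83 and 6.33 in P21_WT, and 6.00 to 6.39 in P21_KO. Its age difference was 0.67 ± 0.29 (limma adjusted p = 0.376).

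Of the 9 plexins, the signalling receptors of semaphorins, Plxnb3 rose between the ages. It read 6.17 and 6.30 in P4_WT, 7.80 and 7.56 in P21_WT, and 7.94, 7.51, 7.49 and 7.51 in P21_KO. All 21-day arrays stood at least 1 unit above both P4_WT arrays. Plxnb3 rose by 1.45 ± 0.21, or 2.73-fold (limma adjusted p = 0.0146), close to the rise of 1.49 ± 0.21 in Sema5a, its ligand. The genotype difference was -0.07 ± 0.18 (limma adjusted p = 0.987), with a 95% interval from -0.48 to 0.34. The Plxnb3 call between the ages was lost without P4_WT replicate 1 (limma adjusted p = 0.061), P21_WT replicate 1 (0.099) or P21_WT replicate 2 (0.06).

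Plxnb1, the receptor of Sema4d, read 4.76 and 4.01 in P4_WT, 5.77 and 6.01 in P21_WT, and 6.25, 5.85, 5.50 and 6.26 in P21_KO. It rose by 1.58 ± 0.28 in P21_KO against P4_WT, or 2.99-fold (limma adjusted p = 0.013), and its age difference of 1.51 ± 0.32 missed the threshold (limma adjusted p = 0.0679). The probe sets of Plxnb1 disagreed. A second, dimmer probe set gave -0.36 ± 0.34 between the ages and 0.26 ± 0.29 in P21_KO against P4_WT. With the mean of both the call was lost (limma adjusted p = 0.059), as it was without P4_WT replicate 2 (limma adjusted p = 0.0912).

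Most Schwann cell and glia markers, 9 of the 11 measured, had higher means at 21 days in wild-type mice, the direction of Sema3b, Sema5a and Plxnb3. Of the 11 measured genes of that list, 6 rose and 1 fell between the ages, and the list mean was 6.57 and 6.70 in P4_WT, 7.04 and 7.16 in P21_WT and 6.87 to 7.32 in P21_KO. The 2 lower genes were Gap43 and Fabp7. Gap43 fell by 4.76 ± 0.35 (limma adjusted p = 0.000935), and Fabp7 differed by -1.22 ± 0.54 (limma adjusted p = 0.409). Mbp, a defining marker and a myelin protein, rose from 7.74 and 7.16 to 8.56 and 8.86 (limma adjusted p = 0.033). The keratinocyte mean also stood higher, at 6.92 and 6.19 in P4_WT and 7.35 and 7.37 in P21_WT. Of its 14 genes 1 was called higher, beside 0.757% of all genes. The part of either cell type in the rise of Sema3b, Sema5a and Plxnb3 was not tested.

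In P21_KO against P4_WT all 4 A plexins, the partners of neuropilins and of class 6 semaphorins, had lower means, and Plxna2 fell. Plxna2 read 5.86 and 4.58 in P4_WT, 4.22 and 4.35 in P21_WT, and 3.49 to 3.99 in P21_KO. It was 2.84-fold lower (a difference of -1.51 ± 0.32, limma adjusted p = 0.0269). P4_WT replicate 1 carried much of this difference, which was -0.87 without that array, and the call was lost. That array had the higher hair, keratinocyte and pericyte marker means. The call was also lost without P21_KO replicate 1, 2 or 4 (limma adjusted p of 0.055 to 0.0592).

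Plxna1 was the A plexin with the smallest p between the genotypes. It read 6.83 and 6.74 in P4_WT, 6.44 and 7.08 in P21_WT, and 6.35, 5.77, 5.54 and 5.56 in P21_KO, a difference of -0.96 ± 0.27 that did not pass the test (limma adjusted p = 0.59). A second probe set gave -0.20 ± 0.17. Plxna4 differed by -1.15 ± 0.32 between the ages (limma adjusted p = 0.15) and Plxna3 by 0.28 ± 0.36. Plxnb2 and Plxnd1, receptors of Sema4c and Sema3e, differed by -0.18 ± 0.20 and 0.18 ± 0.21 between the ages, and read 5.13 to 5.73 and 6.27 to 6.99 over all arrays.

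Plxnc1 encodes plexin-C1, the receptor of Sema7a, which is known to be expressed by melanocytes. It read 8.06 and 8.51 in P4_WT, 7.56 and 7.68 in P21_WT, and 6.76, 6.52, 6.16 and 4.78 in P21_KO. The groups descended without overlap, and P21_KO replicate 4 lay more than 1 unit below the next array. Plxnc1 was 4.69-fold lower in P21_KO than in P4_WT (a difference of -2.23 ± 0.49, limma adjusted p = 0.0295). The genotype difference was -1.56 ± 0.49, with a 95% interval from -2.68 to -0.45, and did not pass the test (limma adjusted p = 0.609), and without P21_KO replicate 4 it was -1.14. The call against P4_WT was lost without P4_WT replicate 1, P4_WT replicate 2, P21_WT replicate 1, P21_WT replicate 2 or P21_KO replicate 3 (limma adjusted p of 0.051 to 0.165).

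The melanocyte marker mean took the same order over the 4 knockout arrays as Plxnc1, at 7.27, 6.91, 6.44 and 5.95 for replicates 1 to 4. Of its 14 genes, 13 were lower in P21_KO than in P21_WT and 0 were called. Against P4_WT, 9 fell and 1 rose in P21_KO, beside 4.68% and 3.05% of all genes. The part of this shift in the Plxnc1 values was not tested.

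Over the whole set, the genotype comparison called 0 of the 52, and 0% of all genes were called. At an unadjusted limma p under 0.05 there were 6, all with lower means in the knockout: Efnb2, Sema3d, Plxna1, Plxnc1, Sema3c and Sema3a. They are 11.5% of the set, against 6.52% of all genes (2.84% higher and 3.69% lower). In the brighter 11912 genes the shares were 14.3% of the 42 guidance genes there and 10.1% of all. The median difference was -0.04 against 0.01 over all genes, and its median size was 0.18 against 0.16. The arrays of P21_WT and P21_KO did not overlap for 11 guidance genes, 2 higher and 9 lower, which is 21.2% against 15.4% of all genes (7.75% higher and 7.64% lower).

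The comparison of P21_KO with P4_WT, which differ in age and genotype together, called 14 of the 52, or 26.9%, against 7.73% of all genes (3.05% higher and 4.68% lower). In the brighter 11912 genes the shares were 31% and 13.6%. At an unadjusted p under 0.05 there were 27, 12 higher and 15 lower, or 51.9% against 20.5% of all genes (8.1% higher and 12.4% lower). In the brighter genes these shares were 61.9% and 33.2%. The arrays did not overlap for 30 genes, 15 each way, or 57.7% against 29.6% of all genes (14.2% higher and 15.5% lower). Of the 14, 7 rose and 7 fell, and they include all 5 genes called between the ages. The others were Efna4, Efnb2, Ephb6, Plxna2, Plxnb1, Plxnc1, Sema3c, Sema3g and Sema4c. The calls of Efna5, Efnb2, Nrp1, Plxnb3, Sema3b, Sema4c and Sema5a held in each of the 8 fits that left out 1 array. This comparison has 6 arrays against 4 in the age comparison, so the greater number of calls does not show a difference between the genotypes.

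**Figure D3:**
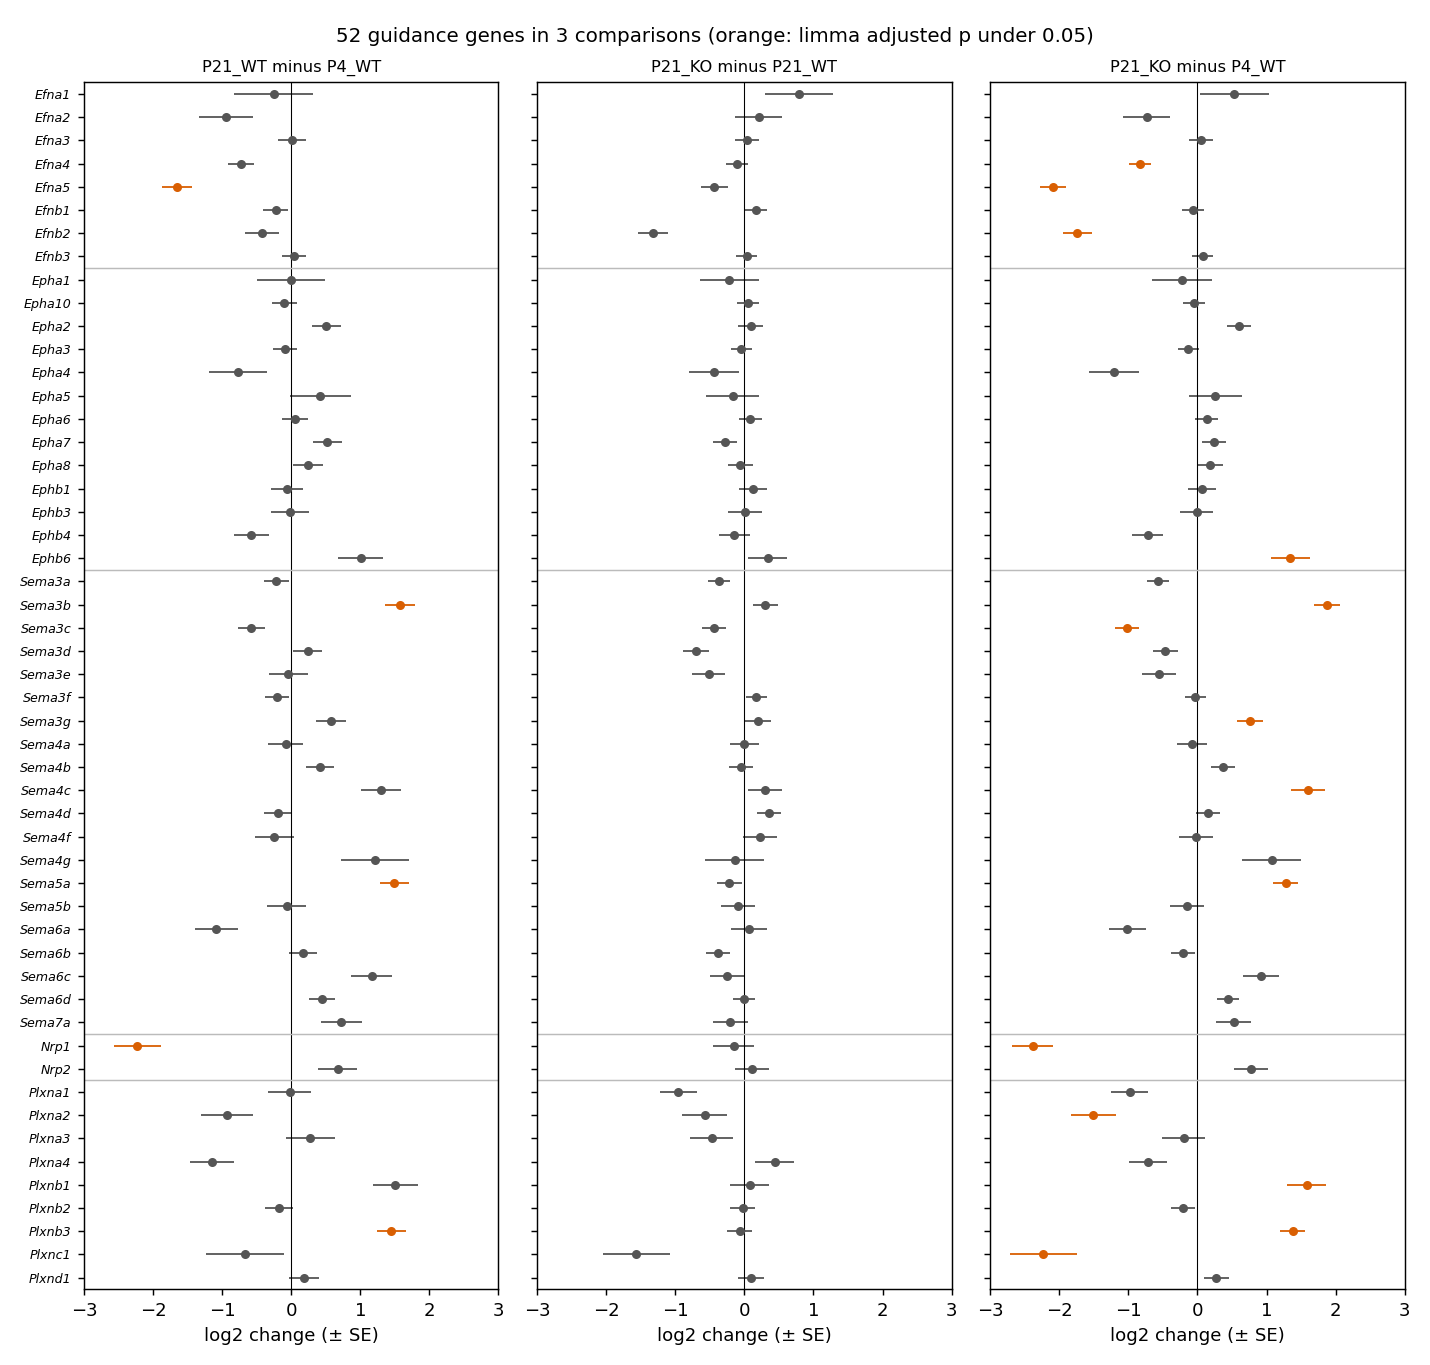
Difference in log2 RMA intensity (x axis) with its standard error for each of the 52 guidance genes (rows) in the age comparison, the genotype comparison and P21_KO against P4_WT (panels), with called genes in orange. The age panel has 5 called genes, the genotype panel has 0 and the third panel has 14, 7 on each side of 0.

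Replicates of a group differed little for most of these genes. The median range within a group was 0.266 over the 2 P4_WT arrays, 0.243 over the 2 P21_WT arrays and 0.464 over the 4 P21_KO arrays. A range above 1 unit was seen for Epha1, Epha4 and Plxna2 in P4_WT, each higher in replicate 1. It was seen for Epha5, Ephb6, Plxna3 and Sema4g in P21_WT, and for Efna1, Efna2, Plxna4, Plxnc1 and Sema4g in P21_KO. Of the 52, 40 lay above the arrays' median in all 3 groups, 8 below it in all 3, and Efna4, Efnb2, Epha7 and Sema4d below it in some.

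**Figure D4:**
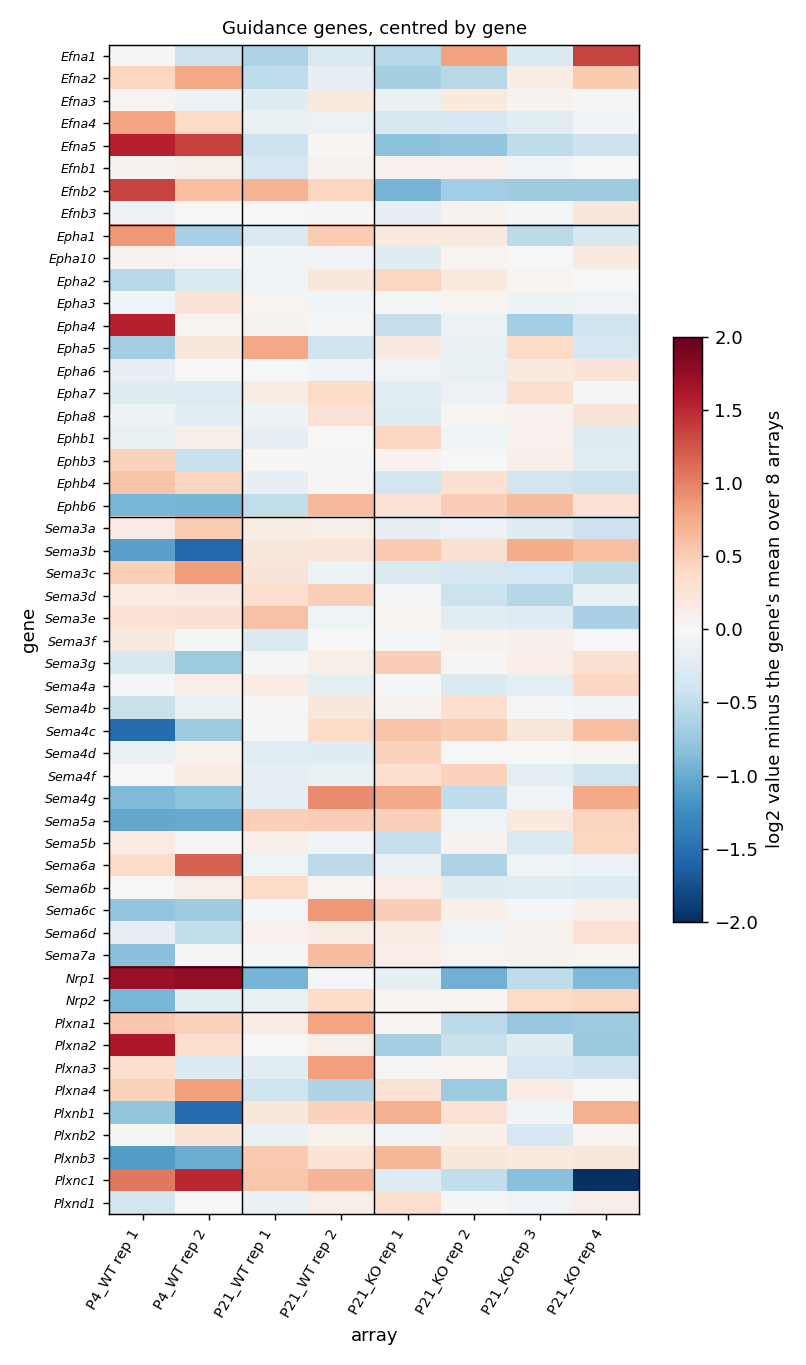
Heat map of the 52 guidance genes (rows) on the 8 arrays (columns), as log2 RMA intensity minus the gene's mean over the arrays (colour scale, log2 units; 1 value, of Plxnc1 in P21_KO replicate 4, lies past its end at -2). The blocks of opposite colour between P4_WT and the 21-day arrays are seen for Efna5 and Nrp1, which are higher in P4_WT, and for Sema3b, Sema5a, Sema4c, Plxnb1 and Plxnb3, which are lower there.

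Set side by side as ligand and receptor, Sema5a and Plxnb3 both rose between the ages. Sema3a and Nrp1 differed by -0.21 and -2.23, of which only the second passed the test. Sema7a and Plxnc1 differed by 0.73 and -0.67, and Sema4c and Plxnb2 by 1.30 and -0.18, with 0 of these 4 called. For ephrin-B2 and its receptor Ephb4 the values were -0.42 and -0.58, neither of them called. Sema4d and Plxnb1 differed by -0.20 and 1.51, Sema3e and Plxnd1 by -0.04 and 0.18, and Efna1 and Epha2 by -0.25 and 0.51. Nrp2 differed by 0.67, and its ligands Sema3c and Sema3g by -0.58 and 0.57. These were not called either.

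The other families of guidance molecules were read from a list of 35 genes, of which 33 were measured. Between the ages 1 rose and 2 fell, or 9.09% against 1.61% of all genes, with a median difference of -0.12 against 0.00. Robo1, the receptor of Slit repellents, read 6.07 and 5.71 in P4_WT, 3.43 and 4.55 in P21_WT, and 2.93 to 3.14 in P21_KO. The groups did not overlap. Robo1 fell by 1.90 ± 0.33, or 3.73-fold (limma adjusted p = 0.0321), and was 7.23-fold lower in P21_KO than in P4_WT (limma adjusted p = 0.0011), with a genotype difference of -0.95 ± 0.28 (limma adjusted p = 0.609). Its age call was lost on leaving out any array but P21_WT replicate 2 (limma adjusted p of 0.051 to 0.121).

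Flrt2, a membrane protein that repels cells carrying the netrin receptor Unc5d, read 6.83 and 5.57 in P4_WT, 3.84 and 3.74 in P21_WT, and 2.93 to 3.48 in P21_KO. It fell by 2.41 ± 0.38 between the ages, or 5.32-fold (limma adjusted p = 0.0233), a call lost without P21_WT replicate 1 (limma adjusted p = 0.115) or replicate 2 (0.116). Mag, a myelin protein that blocks axon growth and is itself a gene of Schwann cells, rose by 1.84 ± 0.26, or 3.58-fold (limma adjusted p = 0.0154). It read 5.90 and 5.40 in P4_WT and 6.90 to 7.59 in the 21-day arrays, without overlap. The Mag call was lost without P4_WT replicate 2 (limma adjusted p = 0.069), P21_WT replicate 1 (0.101) or P21_WT replicate 2 (0.067). In P21_KO against P4_WT, Unc5b, a netrin receptor, also fell, by 0.62 ± 0.14 (limma adjusted p = 0.0335), a call lost on leaving out any 1 array (limma adjusted p of 0.053 to 0.213).

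Between the genotypes 0 of the 33 were called and 3, or 9.09% against 6.52% of all genes, had an unadjusted limma p under 0.05, all lower in the knockout. They were Robo1, the adhesion molecule Chl1 with a difference of -0.55 ± 0.19 (limma adjusted p = 0.684) and the netrin Ntn4 with -1.12 ± 0.45 (limma adjusted p = 0.736). Ntn4 read 3.34 and 4.94 in P21_WT, and its difference was -1.92 without replicate 1 of that group and -0.32 without replicate 2. The Robo1 difference was -1.52 and -0.39 in those fits.

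Of 60 genes for proteins that act with or below these receptors, 54 were measured. Between the ages 2 changed, or 3.7%, against 1.61% of all genes and 2.78% of the brighter 11912. The last share is not matched in brightness, because 11 of the 54 lay below the arrays' median in P4_WT and 11 in P21_WT. Mical3, of the family of enzymes that oxidise actin below plexins, rose by 0.99 ± 0.18 (limma adjusted p = 0.0386) from 5.56 and 5.18 in P4_WT to 6.34 and 6.40 in P21_WT. It kept the call in 1 of 8 fits that left out an array, the one without P4_WT replicate 1. Farp1, an exchange factor bound to A plexins, fell by 1.64 ± 0.28, or 3.11-fold (limma adjusted p = 0.0301), from 6.34 and 5.61 to 4.34 and 4.33. That call was lost without P4_WT replicate 1 (limma adjusted p = 0.09), P21_WT replicate 1 (0.14), P21_WT replicate 2 (0.133) or P21_KO replicate 3 (0.052). Limk2, a kinase of the actin-severing protein cofilin, differed by 0.91 ± 0.21 (limma adjusted p = 0.08).

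Met, the receptor of hepatocyte growth factor that associates with B plexins, had the greatest difference of this list. Met read 8.09 and 8.09 in P4_WT, 6.56 and 6.38 in P21_WT, and 4.59, 4.94, 3.49 and 3.39 in P21_KO. The 3 groups descended in well-separated steps. Met fell by 3.99 ± 0.43 in P21_KO against P4_WT, or 15.9-fold (limma adjusted p = 0.00148). The age difference was -1.62 ± 0.49 (limma adjusted p = 0.186) and the genotype difference was -2.37 ± 0.43 (limma adjusted p = 0.329), neither of them called. The melanocyte marker mean descended over the same groups, at 8.97 to 9.10, 7.55 to 7.67 and 5.95 to 7.27. The part of that shift in the Met values was not tested.

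In P21_KO against P4_WT, 6 of the 54 were called, or 11.1%, against 7.73% of all genes. The share in the brighter 11912 was 13.6%, but 12 of the 54 lay below the arrays' median in P21_KO. Beside Mical3, Farp1 and Met they were Limk2, which rose by 0.98 ± 0.18 (limma adjusted p = 0.0143), Dpysl3, a relay of the Sema3a signal to the cytoskeleton, which fell by 1.45 ± 0.26 (limma adjusted p = 0.0126), and the kinase gene Pak3, which fell by 0.68 ± 0.15 (limma adjusted p = 0.0295). The Dpysl3 and Limk2 calls were lost without P4_WT replicate 2 (limma adjusted p of 0.081 and 0.105). The Pak3 call was lost without either P4_WT array or without P21_KO replicate 2, 3 or 4 (limma adjusted p of 0.053 to 0.144). Between the genotypes 0 of the 54 were called. An unadjusted limma p under 0.05 was seen for 3 of them, or 5.56%, which is below the 6.52% of all genes. They were Met, Cdk5 with -0.38 ± 0.16 (limma adjusted p = 0.759) and Dpysl3 with -0.59 ± 0.26 (limma adjusted p = 0.766).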

How the data were processed

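The authors deposited log2 values from Affymetrix arrays. The submitters' processing notes name RMA and Affymetrix Expression Console, without versions. The cells were sorted from skin and their RNA was amplified before labelling, per the labels' protocols. The deposited values ran from 0.913 to 12.2 and were used as given.

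Of 41345 rows, 23521 carry 1 gene symbol in the platform annotation. They cover 22180 genes. The Entrez IDs of all 52 guidance genes were found under the same symbol in the RefSeq gene table of GRCm38.p6. Using limma 3.58.1 in R 4.3.3, lmFit and eBayes estimated group means over the 8 arrays together, with 5 residual degrees of freedom and two-sided tests. No filter on dim genes was applied. The number of arrays limits the precision.

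Genes given with each array's value were those called in any comparison and the 6 with the smallest p in the age and the genotype comparison. Sema4g was added after its values were seen. Other genes outside this rule, among them Epha1, Epha2, Epha4, Efna1, Nrp2, Sema4d and the marker Eng, are given with the values of some arrays. For pathway lists they were called genes and up to 3 with the smallest p. The members and lists were chosen with earlier results of these data known. Alternatives changed which arrays were fitted, the prior, the weighting of arrays, the normalization (3 ways), a dim-gene filter, the choice of probe sets, blocks, the threshold and leaving out each array. The fit was tested on simulated data. Set changes of 1 log2 unit were called for 34% of genes in the age comparison, 38% in the genotype comparison and 41% in P21_KO against P4_WT. For changes of 2 units the shares were 79%, 79% and 84%.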

Additional observations from a re-analysis of the deposited data

Results flagged for a closer look

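In P21_KO, the one group with enough arrays for this check, a single array stood apart from the other 3 for 7 of the 52 guidance genes by Dixon's criterion, or 13.5%. Chance alone sets about 1 in 20 apart. The check was not run on the other genes, so whether this share is particular to the guidance genes is not known.

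Replicate 1 was the array that stood apart for 5 of them. Efnb2 read 2.58 there and 2.80 to 2.82 on the other arrays. Plxnb3 read 7.94 against 7.49 to 7.51, Sema4d 3.90 against 3.43 to 3.50, Sema6b 2.83 against 2.43 to 2.46, and Sema7a 4.44 against 4.38 to 4.39. Replicate 1 is also the knockout array whose label number differs from that of the other 3. Replicate 2 stood apart for Ephb4, with 5.00 against 4.27 to 4.34, and for Sema6a, with 4.34 against 4.82 to 4.87. The gap was under 0.5 log2 units for each of these genes except Ephb4.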

How the results depend on the processing

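Each count was recomputed under 19 alternatives. The age comparison called 5 of the 52 genes, and 0 with the arrays of its 2 groups alone. Leaving out 1 array gave 1 to 6. The genotype comparison called 0 in all 19, and leaving out 1 array gave 0 to 0. P21_KO against P4_WT called 14, and leaving out 1 array gave 10 to 13. With the replicate number as a block the age comparison called 0, the genotype comparison 0 and P21_KO against P4_WT 5 (Efna2, Efna5, Plxnb3, Plxnc1 and Sema3b). The labels give these only as numbers of biological replicates. Deviations of same-numbered arrays correlated at -0.0372 to 0.00573, and those of differently numbered arrays at -0.0561 to 0.0561. These values cannot show whether arrays were paired, because the deviations in a group of 2 mirror each other. All other alternatives gave 5 to 7 genes in the age comparison and 13 to 20 in P21_KO against P4_WT, the highest at an adjusted p under 0.1. Of 912 values for single named genes, 790 kept direction and side of the threshold, 119 lost the call, 3 gained one and 0 changed sign. Signal limits the 8 genes below the arrays' median, whose differences RMA compresses, and groups of 2 arrays limit every age value.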
